A study of Mus musculus with 11 samples.

Results

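mmu-miR-151-5p, mmu-miR-151-3p, mmu-miR-28a-5p and mmu-miR-28a-3p are the 5p and 3p arms of a pair of related microRNA hairpins, mir-151 and mir-28a. These 4 mature miRNAs were followed through small RNA sequencing of mouse embryonic stem cells, in 11 libraries. They were taken by name from a table of 1966 mature miRNAs, of which 1347 had at least 1 count and 730 were abundant enough to be tested, all 4 among them. They had been selected on their counts, because both arms of miR-151 were far lower in induced E518K than in induced wild-type cells. Their values in that contrast are therefore a description and carry no test.

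The study asked how the E518K variant of DGCR8, in which a glutamate is replaced by lysine, changes miRNA production. All cells carried the same strain label, NBA1-19349 from Novus Biochemicals, and grew without feeder cells in 2i medium with LIF. The KO group (DGCR8 -/-) was not transfected, received 300 ng/mL doxycycline for 48 h, and its 3 libraries all name clone 261. Wild-type cells (label DGCR8 wt/wt) carried the inducible vector pSB ET iE-FlagDGCR8-wt, introduced with the transposase plasmid pCMV(CAT)-SB100X. Clones 10, 12 and 16 were induced with the same dose and time, and clone 10 was also sequenced untreated. E518K cells (label DGCR8 E518K/E518K) carried pSB ET iE-FlagDGCR8-E518K and the same transposase plasmid, with clones 8, 13 and 15 induced and clone 8 also untreated. The untreated libraries were meant to show how much the vectors leak. In both transfected groups the labels name a DGCR8 transgene. The labels do not tell whether separate cultures gave the KO libraries, so their spread may be technical, and p-values measure only the spread between these samples.

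DGCR8 binds primary miRNA transcripts and, with the nuclease Drosha, releases their hairpins. Dicer then cuts each hairpin into a 5p and a 3p strand, and usually one of them is kept in Argonaute while the other is degraded. miR-28, miR-151 and miR-708 are related through hairpins derived from LINE-2 repeats, and primary miR-151 is a known substrate of adenosine-to-inosine editing, which counts per mature miRNA do not show. In the GENCODE annotation of GRCm38.p6, mir-151 lies on chromosome 15 at 73254815 to 73254882 on the minus strand. It is in an intron of Ptk2, the gene of focal adhesion kinase, transcribed from the same strand, and overlaps the antisense gene 1700085D07Rik on the plus strand. How strand was treated in the counting is not given in the sources used, so reads from the 2 strands there cannot be told apart. mir-28a lies on chromosome 16 at 24827855 to 24827940 on the plus strand, in an intron of Lpp, which encodes a LIM domain protein of focal adhesions and is transcribed from the same strand. No annotated coding transcript of Ptk2 (0 of 2 spanning it) or of Lpp (0 of 3) has the hairpin in an exon.

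The sequences of the miR-28a arms are shown beside those of miR-708, since 1 arm of each shares a seed, the bases by which a miRNA recognizes its targets. They are the RefSeq mature forms on GRCm38.p6, 5′ to 3′, with the seed (bases 2 to 8) in capitals. The arms of mir-28a are on the plus strand at chr16:24827868-24827889 (5p) and chr16:24827908-24827929 (3p), with 18 bases between them. The arms of mir-708 are on the plus strand at chr7:96249450-96249472 (5p) and chr7:96249496-96249517 (3p), in an intron of Tenm4, a teneurin gene, with 23 bases between them.
mmu-miR-28a-5p: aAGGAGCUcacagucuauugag
mmu-miR-708-5p: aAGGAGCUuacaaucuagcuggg
mmu-miR-28a-3p: cACUAGAUugugagcugcugga
mmu-miR-708-3p: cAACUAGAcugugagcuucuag
The seed AGGAGCU stood in mmu-miR-28a-5p and mmu-miR-708-5p and in no other of 1738 mature mouse sequences in the RefSeq table. Read from the 5′ end, these 5p arms had the same base at 16 of 22 positions. The 3p arms had different seeds and shared 8 bases in a row, ugugagcu, further along. Of the 4 miRNAs studied, 2 were matched in that table, and of the 4 close relatives (miR-28b, miR-28c and both arms of miR-708), 3.

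Library size differed strongly between groups: the miRNA counts summed to 166676 to 208846 in KO, 264507 in untreated E518K, 1421247 in untreated wild type, 1050564 to 1797240 in induced E518K and 3394216 to 6128734 in induced wild type. The 12 stem cell miRNAs of the miR-290 to miR-295 cluster, which need DGCR8, made up 0.124% to 0.369% of the KO counts and 34.1% to 39.4% of those of induced wild type. They made up 15.6% to 18.0% of the counts of induced E518K, 32.0% of those of untreated wild type and 1.42% of those of untreated E518K, so the untreated libraries stood on different sides. Dgcr8 mRNA is not measured by small RNA libraries. A list of 15 miRNAs of liver, muscle, blood, neurons and mesenchyme held 1.04% to 1.48% of the KO counts. It held 0.739% in untreated E518K and 0.139% to 0.363% in the other libraries. Of that list only miR-223-3p, a blood marker, had 0 counts in all libraries, and the others, blood markers among them, had counts in at least 1 library. The part of these shares in the results below was not tested. Of the counts from 1 to 40, 90.3% were even, as if most small RNAs had been counted in pairs, so 6 counts (3 small RNAs) were taken as the floor of 1 library. In bulk RNA, fewer cells with a miRNA and less of it per cell cannot be told apart.

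The 3p arm was the abundant strand of miR-151. Levels are given as CPM after TMM scaling, which sets each library by the bulk of its miRNAs. mmu-miR-151-3p stood at 2770, 2040 and 1650 CPM in induced wild-type clones 10, 12 and 16 and at 53.0, 36.6 and 58.4 CPM in induced E518K clones 8, 13 and 15. KO libraries 1, 2 and 3 held 301, 504 and 214 CPM. Untreated wild type had 1570 CPM, just under the lowest induced clone, and untreated E518K had 102 CPM. The order from high to low was induced wild type, untreated wild type, KO, untreated E518K and induced E518K. The KO libraries lay above every E518K library and below every wild-type library. Untreated wild type lay about 1 SD below the induced clones, which averaged 2150 ± 572 CPM (SD, n = 3).

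mmu-miR-151-5p, the minor strand, was read from few counts outside induced wild type. It had 394, 508 and 1384 counts in wild-type clones 10, 12 and 16, or 193, 154 and 257 CPM. Only 2, 4 and 2 counts were found in E518K clones 8, 13 and 15 (1.31, 3.33 and 2.02 CPM), all under the floor of 6 counts although these libraries held at least 1050564 counts each. KO libraries 1, 2 and 3 had 2, 8 and 2 counts, which in these small libraries came to 4.27, 24.0 and 6.10 CPM. Untreated wild type had 10 counts (14.6 CPM) and untreated E518K 4 counts (12.7 CPM). Induced wild type stood far above all other libraries. With TMM scaling both untreated libraries lay within the range of the KO libraries. KO, untreated E518K and induced E518K could not be ordered at these counts.

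miR-28a was a rarer hairpin. mmu-miR-28a-3p stood at 117, 86.5 and 78.4 CPM in wild-type clones 10, 12 and 16 and at 10.5, 11.6 and 6.05 CPM in E518K clones 8, 13 and 15, from 16, 14 and 6 counts. The KO libraries held 12.8, 12.0 and 12.2 CPM, from 6, 4 and 4 counts, so they were at or under the floor. Untreated wild type had 61.3 CPM and untreated E518K 6.36 CPM from 2 counts. Wild type with and without doxycycline was above the rest, and KO, untreated E518K and induced E518K could not be ordered at these counts.

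mmu-miR-28a-5p, the arm with the miR-708 seed, was the rarest of the 4. It had 53, 127 and 185 counts in wild-type clones 10, 12 and 16 (26.0, 38.6 and 34.3 CPM) and 2, 2 and 4 counts in E518K clones 8, 13 and 15 (1.31, 1.66 and 4.03 CPM). The KO libraries had 6, 4 and 6 counts (12.8, 12.0 and 18.3 CPM), and untreated wild type had 16 counts (23.3 CPM). Untreated E518K had 0 of 264507 counts, which with a floor of 6 counts allows up to 19.1 CPM. All wild-type libraries were above all KO and E518K libraries, and within the DGCR8-deficient and E518K groups every library was at or under the floor.

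**Figure D1:**
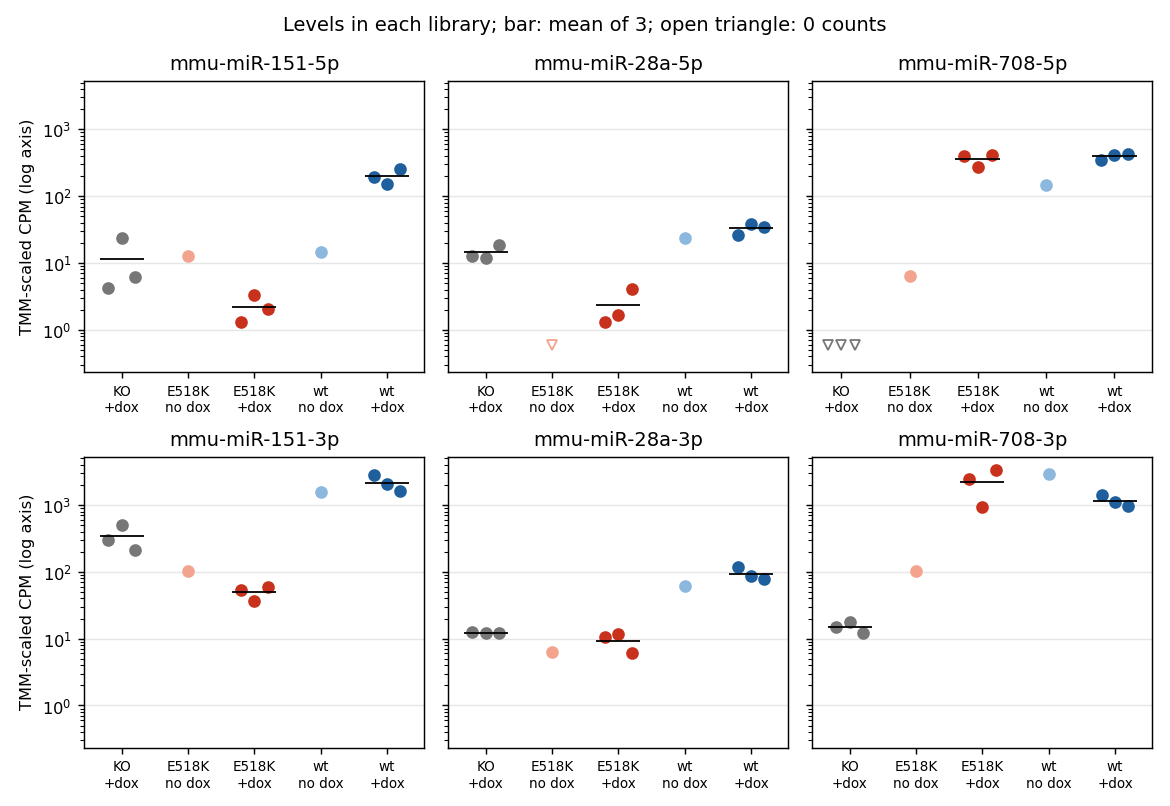
TMM-scaled CPM (log axis) of both arms of miR-151, miR-28a and miR-708 in each library, by group; points are libraries, bars the means of groups of 3 and open triangles libraries with 0 counts, drawn at an arbitrary low position. Both arms of miR-151 and miR-28a are lowest or among the lowest in induced E518K, while both arms of miR-708 are near or above the wild-type level there with this scaling (the log2 change from wild type is -2.90 and -1.79 for its arms with the DGCR8-independent scaling) and lowest in KO.

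With induced E518K set against induced wild type, the contrast on which the miRNAs were chosen, all 4 were lower in every E518K library than in any wild-type library. The fitted log2 change was -6.48 (SE 0.65) for mmu-miR-151-5p, an 89.5-fold lower level. It was -5.45 (SE 0.46) for mmu-miR-151-3p, 43.6-fold lower. For miR-28a it was -3.86 (SE 0.67) on the 5p arm and -3.29 (SE 0.54) on the 3p arm, 14.6-fold and 9.79-fold lower. The arms of miR-151 ranked 31 and 57 from the lowest of the 730 tested miRNAs, and those of miR-28a ranked 112 and 142. As background, 38.8% of the tested miRNAs lay lower in all E518K libraries than in any wild-type library, 35.3% were called lower by edgeR's quasi-likelihood test and 28.2% higher. Without wild-type clone 16 the change was -5.61 for mmu-miR-151-5p, -4.86 for mmu-miR-151-3p and -3.13 for mmu-miR-28a-5p.

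The counts behind the E518K levels were few, which widens these folds. With the counts of each group pooled, mmu-miR-151-5p was 99.2-fold higher in wild type than in E518K, with an exact interval of 38.6 to 365 from 2286 and 8 counts. The interval for mmu-miR-151-3p was 32.6 to 49.8, around 40.1, from 21241 and 183 counts. For mmu-miR-28a-5p the pooled ratio was 15.9 (6.10 to 58.9), and for mmu-miR-28a-3p it was 9.14 (5.72 to 15.6). No comparison is drawn between the members from these ratios, since the same contrast chose them. These are 95% intervals on counts divided by 2, and like the floors they cover counting error only, since the reads carry no molecular identifiers.

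How the libraries are scaled sets these values, because the total of canonical miRNAs itself differs between the groups. With a scaling set by 13 miRNAs that are made without DGCR8, such as miR-320-3p and the intron-derived miR-877, the log2 changes from wild type to E518K were -9.26 and -8.21 for the 5p and 3p arms of miR-151 and -6.64 and -6.07 for those of miR-28a. That scaling moved the median over all tested miRNAs from -0.14 to -2.90, and the split of calls from 206 higher and 258 lower to 12 higher and 498 lower. A scaling shifts all miRNAs alike, so values relative to the median of all tested miRNAs are near constant by construction. Over 5 scalings, mmu-miR-151-5p was between -6.43 and -6.35 and mmu-miR-151-3p between -5.38 and -5.26. mmu-miR-28a-5p was between -3.79 and -3.72 and mmu-miR-28a-3p between -3.21 and -3.05.

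**Figure D2:**
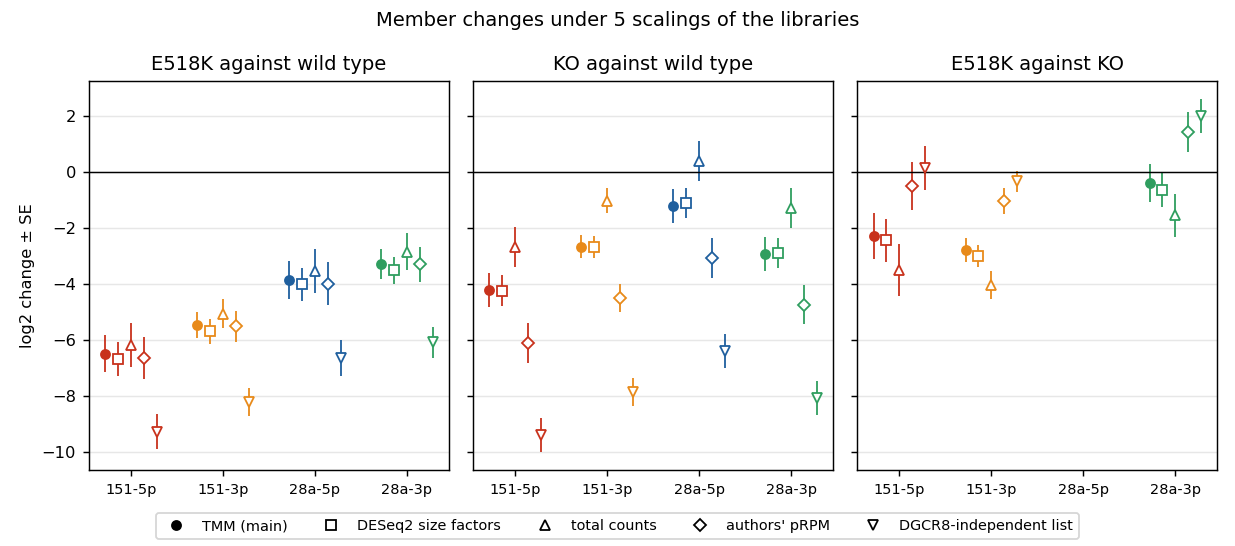
Log2 change ± SE of each miRNA in the 3 comparisons of doxycycline-treated groups, by 5 ways of scaling the libraries (marker shape); mmu-miR-28a-5p in E518K against KO is left out because all counts are at or under the floor. Every change from wild type to E518K is below 0, while the changes from KO to E518K reach 0.13 for mmu-miR-151-5p and 1.99 for mmu-miR-28a-3p under the scaling by DGCR8-independent miRNAs.

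KO cells against induced wild type asks how much of each miRNA was left with no DGCR8. This comparison shares the wild-type libraries with the one above, so a high level there was part of the choice. The members' p-values here are not free of that choice. mmu-miR-151-5p was lower by a log2 change of -4.20 (SE 0.61, edgeR adjusted p = 2.2e-11), mmu-miR-151-3p by -2.66 (SE 0.40, adjusted p = 2.1e-10) and mmu-miR-28a-3p by -2.92 (SE 0.60, adjusted p = 2.6e-06). mmu-miR-28a-5p, at -1.21 (SE 0.61, adjusted p = 0.053), did not pass. So 3 of 4 were called lower, against a background of 58.4% of all tested miRNAs called lower and 30.0% called higher. Scaling by total counts gave -2.67 for mmu-miR-151-5p, -1.02 for mmu-miR-151-3p, -1.29 (adjusted p = 0.083) for mmu-miR-28a-3p and 0.38 for mmu-miR-28a-5p, whose direction thus turned. Scaling by the DGCR8-independent miRNAs gave -9.39, -7.86, -8.06 and -6.38 in that order, with adjusted p of at most 7.4e-26, and moved the split of all calls from 219 higher and 426 lower to 26 and 536.

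Single libraries moved these KO values. mmu-miR-151-5p was at -3.36 without KO 3. mmu-miR-151-3p was at -3.27 without KO 1, -1.73 without KO 3, -1.88 without wild-type clone 10 and -2.05 without clone 12. mmu-miR-28a-3p was at -3.62, -2.08 and -2.16 without KO 1, 2 and 3 and at -2.15 and -2.31 without wild-type clones 10 and 12. All of these stayed under an adjusted p of 0.05. mmu-miR-28a-5p was at -1.79 (adjusted p = 0.011) without KO 1, -0.36 without KO 2 and -0.53 without wild-type clone 12.

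Raw counts, which no scaling touches, place the 4 miRNAs among the others within the same libraries. Per 100 mean counts in induced wild type, KO libraries held 0.525 counts of mmu-miR-151-5p, 1.78 of mmu-miR-151-3p, 4.38 of mmu-miR-28a-5p and 1.48 of mmu-miR-28a-3p. The median over 331 miRNAs with a mean of at least 100 counts in wild type was 0.106. All 4 figures were above that median, but apart from mmu-miR-151-3p they rest on means of 4 to 5.33 counts in KO, under the floor of 6. By fitted change relative to the median of all 730 miRNAs, mmu-miR-151-5p was below it in KO (-1.16 to -0.64 over 5 scalings). The other 3 were above it, mmu-miR-151-3p by 0.37 to 1.01, mmu-miR-28a-5p by 1.85 to 2.41 and mmu-miR-28a-3p by 0.17 to 0.74. Such values vary little between scalings by construction, so the 5 scalings are not separate support. In E518K the figures per 100 counts in wild type were 0.350, 0.862, 2.19 and 3.80 against a median of 17.6, all below it. The share of the 331 miRNAs below them in E518K was 3.63% and 7.85% for the 5p and 3p arms of miR-151 and 15.7% and 24.8% for those of miR-28a. The contrast with E518K is the one that chose the miRNAs, and both sets of figures share the wild-type libraries.

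**Figure D3:**
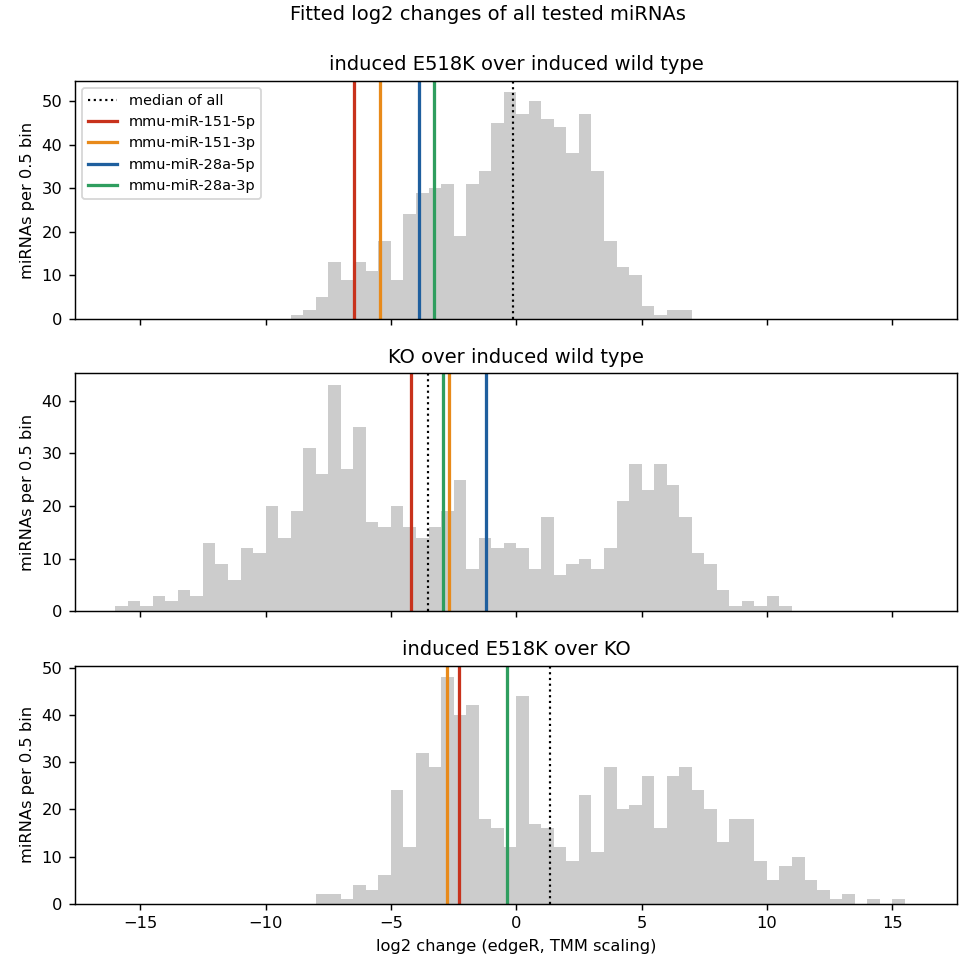
Histograms of fitted log2 changes of all 730 tested miRNAs (bins of 0.5) in E518K over wild type, KO over wild type and E518K over KO, with coloured lines at the miRNAs studied and a dotted line at the median; mmu-miR-28a-5p is not drawn in the lowest panel. The coloured lines lie in the left part of the upper panel, near the middle of the KO panel and left of the median in the lowest panel; fitted values of miRNAs with 0 counts in a group depend on the prior count.

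The fitted median over all tested miRNAs, -3.54 in KO over wild type, rested on 265 miRNAs with 0 counts in a whole group. With those set at the bound that the floor allows it was -0.31, above the fitted values of all 4 miRNAs. The members kept their fitted values, also where their KO counts were at or under the floor, so the measures differ. The place of the members against that median thus depends on how such zeros are treated. For E518K over wild type, with 83 such miRNAs, the median was 0 in place of -0.14.

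Induced E518K cells, which carry the variant transgene, were then set against KO cells, which carry none. The E518K libraries are among those on which the miRNAs were chosen, so a low level there was part of the choice, and the members' values are given as a description with no test. mmu-miR-151-3p had a log2 change of -2.78 (SE 0.42), each E518K library standing below every KO library. mmu-miR-151-5p was at -2.29 (SE 0.83), from 8 counts in E518K against 12 in KO. mmu-miR-28a-3p was at -0.38 (SE 0.68), and mmu-miR-28a-5p was at or under the floor in every library of both groups and was not compared. Over all tested miRNAs 26.2% were called lower and 41.9% higher by edgeR's quasi-likelihood test, and nothing is read from these shares about the members.

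In raw counts mmu-miR-151-3p averaged 126 in KO and 61.0 in E518K, although the E518K libraries were several times larger. Of the 331 abundant miRNAs, 29 (8.76%) had a higher mean raw count in KO than in E518K. A low level of miR-151 in E518K was part of the choice, so its place among these is a description only. The other 3 members averaged 12.0 counts or fewer in both groups. Under the DGCR8-independent scaling mmu-miR-151-3p was at -0.34 (SE 0.39), mmu-miR-151-5p at 0.13 (SE 0.78) and mmu-miR-28a-3p at 1.99 (SE 0.62), so that the last 2 changed sign. Under the authors' own scaling mmu-miR-151-3p was at -1.03 (SE 0.46), mmu-miR-151-5p at -0.51 (SE 0.86) and mmu-miR-28a-3p at 1.43 (SE 0.72). The split of all calls was 306 higher and 191 lower with TMM, 412 and 30 with the DGCR8-independent scaling, 380 and 61 with the authors' scaling and 250 and 249 with total counts. Whether E518K cells held less miR-151 than KO cells, or about as little, therefore depended on the scaling.

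Among single libraries, mmu-miR-151-3p moved to -2.12 without KO 1, -3.73 without KO 3, -3.39 without E518K clone 8 and -2.07 without clone 15. mmu-miR-151-5p was at -2.05 without KO 2, -1.39 without E518K clone 15, -3.27 without KO 3 and -3.31 without clone 13. mmu-miR-28a-3p ranged from -1.29 to 0.71.

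Of the close relatives of miR-28a only miR-708 had counts. miR-28b and miR-28c had 0 counts in all libraries. mmu-miR-708-5p, with the seed of mmu-miR-28a-5p, had 0 counts in the 3 KO libraries, 342, 413 and 429 CPM in wild-type clones 10, 12 and 16 and 405, 272 and 406 CPM in E518K clones 8, 13 and 15. Wild type and E518K overlapped, and the log2 change between them was -0.13 (SE 0.40, edgeR adjusted p = 0.78), or 0.68 (adjusted p = 0.25) without wild-type clone 16. Under the DGCR8-independent scaling it was -2.90 (adjusted p = 2.9e-12), equal to the median of all miRNAs with that scaling. Against the KO floor, mmu-miR-708-5p was at least 24.1-fold higher in wild type and at least 22.0-fold higher in E518K.

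mmu-miR-708-3p stood at 14.9, 18.0 and 12.2 CPM in the KO libraries, 1400, 1100 and 982 CPM in wild-type clones 10, 12 and 16 and 2460, 936 and 3350 CPM in E518K clones 8, 13 and 15. E518K clone 13 lay below all wild-type clones and the other clones above them. The log2 change from wild type to E518K was 0.95 (SE 0.38, adjusted p = 0.021), 0.72 by DESeq2 (adjusted p = 0.17) and -1.79 under the DGCR8-independent scaling (adjusted p = 5.1e-06). It was 1.66 without wild-type clone 16, and the call was lost without wild-type clone 12 (0.93), E518K clone 8 (1.14) or E518K clone 15 (0.54). From KO to E518K it was 7.21 (SE 0.54, adjusted p = 6.3e-36) and from wild type to KO -6.26 (SE 0.52, adjusted p = 1.3e-29). With single libraries left out these ranged from 6.39 (without KO 3) to 7.91 (without KO 1) and from -6.93 (without KO 1) to -5.42 (without KO 3), wild-type clones 10 and 12 giving -5.53 and -5.65 for the latter and KO 2 giving 6.56 and -5.58. Relative to the median miRNA, the 5p arm of miR-708 was between -0.06 and 0.01 and the 3p arm between 0.98 and 1.10 in E518K against wild type over the 5 scalings. Of the 2 miRNAs with the seed AGGAGCU, mmu-miR-708-5p thus had 327 to 619 counts in the E518K libraries and 0 in KO, while mmu-miR-28a-5p had 2 to 4 and 4 to 6 counts.

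The share of the 5p arm within a hairpin compares counts of the same library and needs no scaling. For miR-151 it was 6.52%, 7.03% and 13.5% in wild-type clones 10, 12 and 16, with exact 95% intervals of 5.66% to 7.46%, 6.22% to 7.91% and 12.6% to 14.5%. It was 1.40%, 4.55% and 2.78% in KO 1, 2 and 3 and 2.41%, 8.33% and 3.33% in E518K clones 8, 13 and 15. The KO shares lay below all wild-type shares, but from 2, 8 and 2 counts of the 5p arm, and their upper bounds of 7.5%, 11.2% and 14.5% reached into the wild-type range. The E518K shares overlapped with those of wild type. The mean log2 ratio of the 5p to the 3p arm was -5.22 ± 0.88 in KO and -3.42 ± 0.64 in wild type (SD, n = 3 each), a difference of -1.80. A two-sided exact permutation test gave p = 0.1, the smallest that 3 against 3 libraries allow. In E518K the mean log2 ratio was -4.55 ± 0.98.

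Untreated wild-type clone 10 had a 5p share of 0.918% for miR-151, with an interval of 0.299% to 2.13%. The same clone had 6.52% after induction (5.66% to 7.46%), and these intervals did not overlap. They cover counting error only, not the spread between libraries. The intervals of induced wild-type clones 12 (6.22% to 7.91%) and 16 (12.6% to 14.5%) did not overlap either. Both arms were lower without doxycycline in clone 10, the 5p arm by more. The 5p share of miR-708 moved the same way in that clone, from 4.69% (3.50% to 6.14%) to 19.6% (17.8% to 21.5%). For miR-28a the shares of the same 2 libraries, 27.6% (12.7% to 47.2%) and 18.2% (12.5% to 25.6%), had overlapping intervals. Untreated E518K clone 8 had 11.1% for miR-151, with an interval of 1.38% to 34.7% that spans nearly all other libraries.

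For miR-28a the 5p arm made up 18.2%, 30.8% and 30.4% in wild-type clones 10, 12 and 16, and 50%, 50% and 60% in KO 1, 2 and 3. The KO shares were higher than all wild-type shares but came from 8 to 12 counts a library, and their lower bounds reached 11.8%, 6.76% and 14.7%. The mean log2 ratio was 0.19 ± 0.34 in KO and -1.51 ± 0.57 in wild type, a difference of 1.71 (two-sided exact permutation p = 0.1). In E518K clones 8, 13 and 15 the share was 11.1%, 12.5% and 40%, with the mean log2 ratio at -2.13 ± 1.34. Without E518K clone 15 its difference from wild type went from -0.62 to -1.39. In KO the 5p share of miR-151 was thus lower and that of miR-28a higher than in wild type. Each permutation test gave p = 0.1, the smallest that 3 against 3 libraries allow, so neither could have reached 0.05.

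**Figure D4:**
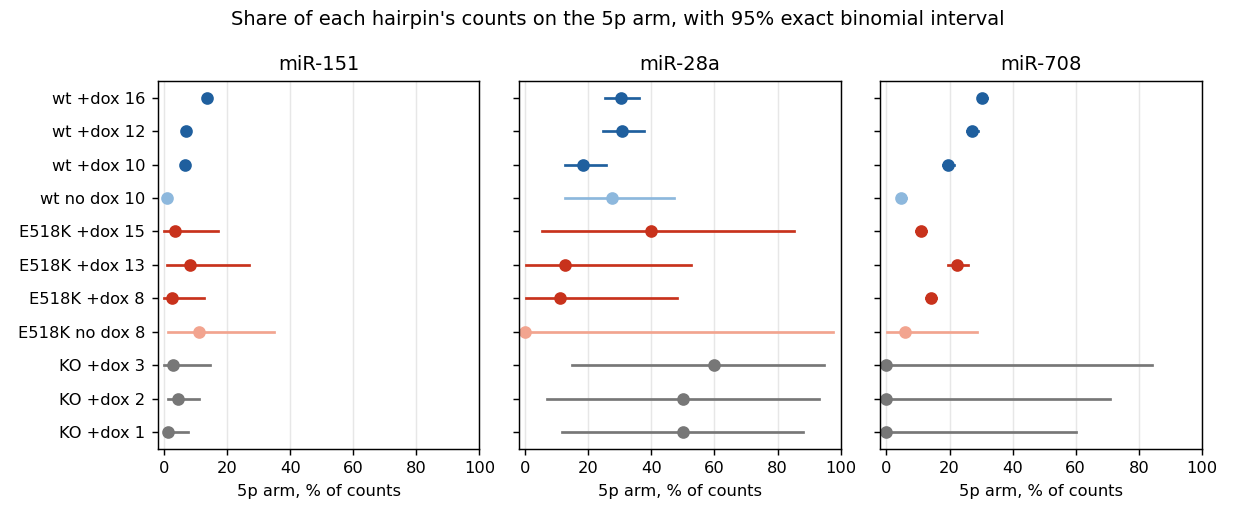
Percent of each hairpin's counts on the 5p arm in each library, with exact 95% binomial intervals on counts divided by 2, for miR-151, miR-28a and miR-708. Intervals are narrow in wild type and wide in KO and in E518K for miR-28a; for miR-151 untreated wild type, at 0.918%, lies below the 3 induced wild-type clones at 6.52% to 13.5%.

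The ratio between the hairpins is also free of scaling. The log2 ratio of all miR-151 counts to all miR-28a counts was 4.37, 4.13 and 4.08 in wild-type clones 10, 12 and 16. It was 2.21, 1.58 and 2.58 in E518K clones 8, 13 and 15, so the groups did not overlap, with means of 4.19 ± 0.16 and 2.13 ± 0.50 (SD, n = 3 each). In KO it was 3.57, 4.46 and 2.85, on both sides of the wild-type values. The untreated libraries, at 4.23 in wild type and 4.17 in E518K, stood at the wild-type level, the latter from only 2 counts of miR-28a. miR-151 was chosen for its low level in E518K, so its lower ratio there restates that choice and is given as a description only.

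Induction with doxycycline was read against the untreated libraries, 1 for each vector, which the fit assumes to vary like the other groups. The induced libraries are those on which the miRNAs were chosen. A high level in induced wild type and a low level in induced E518K were thus part of the choice. The members' p-values with induction are not free of that choice and are no separate support. In wild type mmu-miR-151-5p rose by a log2 change of 3.78 (SE 0.88, edgeR adjusted p = 0.00021), with 15.9% of all tested miRNAs called higher. Without wild-type clone 10 the change was 4.48 and without clone 12 it was 4.57. mmu-miR-151-3p (0.45, adjusted p = 0.54), mmu-miR-28a-5p (0.50, adjusted p = 0.64) and mmu-miR-28a-3p (0.62, adjusted p = 0.51) did not pass. Under the DGCR8-independent scaling these 3 were at 3.64, 3.69 and 3.80 and were all called higher (adjusted p = 2.1e-07, 2.3e-05 and 4.4e-06), and mmu-miR-151-5p was at 6.97. In the single clone sequenced both ways, wild-type clone 10, mmu-miR-151-5p was 13.3-fold higher after induction and mmu-miR-151-3p 1.76-fold higher.

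In E518K, with TMM scaling, neither of the members that could be compared passed, against 24.4% of all tested miRNAs called lower and 28.4% called higher. mmu-miR-151-3p was at -1.04 (SE 0.59, adjusted p = 0.13) and mmu-miR-28a-3p at 0.58 (adjusted p = 0.71). mmu-miR-151-5p and mmu-miR-28a-5p were under the floor in every E518K library with or without doxycycline. mmu-miR-708-3p, at -1.35 (SE 0.50) with induction in wild type, rose by 4.46 (SE 0.73) in these E518K libraries. Under the DGCR8-independent scaling mmu-miR-151-3p was at 2.25 (adjusted p = 0.0012) and mmu-miR-28a-3p at 3.70 (adjusted p = 0.0011), so both were called higher and the direction of the former turned. Total counts gave -1.50 (adjusted p = 0.045) for mmu-miR-151-3p. For all tested miRNAs the induced split moved from 207 higher and 178 lower to 389 and 4 under the DGCR8-independent scaling in E518K, and from 116 and 138 to 483 and 12 in wild type. It was 306 and 56 in E518K and 183 and 70 in wild type with the authors' scaling, 140 and 194 in E518K with total counts, and 182 and 89 in wild type with DESeq2 size factors.

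The untreated libraries were also set against KO. In untreated wild type mmu-miR-151-3p was higher by 2.21 (SE 0.49, edgeR adjusted p = 3.0e-05) and mmu-miR-28a-3p by 2.30 (SE 0.76, adjusted p = 0.0056), with 43.3% of all miRNAs called higher. Both calls were lost when KO 2 or KO 3 was left out. The changes were then 1.24 and 0.96 without KO 2, and 0.78 and 1.03 without KO 3. The median over all tested miRNAs moved as well, from 1.60 to 0.98 without KO 2 and 0.59 without KO 3. KO 2 had the highest level of mmu-miR-151-3p in KO, and mmu-miR-28a-3p was at 12.0 to 12.8 CPM in all KO libraries. The cause of these shifts was not tested. With total counts mmu-miR-151-3p was at 0.12 and mmu-miR-28a-3p at 0.21, and neither was called. The split of all calls was 316 higher and 98 lower with TMM, 209 and 215 with total counts, 336 and 34 with the authors' scaling and 401 and 13 with the DGCR8-independent one. mmu-miR-151-5p (0.42, adjusted p = 0.74) and mmu-miR-28a-5p (0.71, adjusted p = 0.49) did not pass, but under the DGCR8-independent scaling both were called higher, at 2.42 (adjusted p = 0.0089) and 2.69 (adjusted p = 0.0016).

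In untreated E518K mmu-miR-151-3p was lower than in KO by -1.74 (SE 0.64, edgeR adjusted p = 0.045), from 32 counts against 141, 168 and 70. It was the 1 miRNA of 730 called lower, 0.137%, while 15.2% were called higher. Without KO 1 it was at -1.11 (adjusted p = 0.18) and without KO 3 at -2.69 (adjusted p = 0.0046). The call was also lost with counts divided by 2 (-0.80, adjusted p = 0.34), with no low-count filter (-1.68, adjusted p = 0.06) and with the authors' scaling (-1.82, adjusted p = 0.087). mmu-miR-151-5p was at 0.22 (adjusted p = 1.0) and the miR-28a arms were at or under the floor in each library.

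Patterns over the 11 libraries were compared by Pearson's r of log2(CPM + 1), as a description, since the libraries share groups and depth. The arms of miR-151 had an r of 0.872 with each other and those of miR-28a 0.787, and across the hairpins r was 0.903 for the 3p arms and 0.673 for the 5p arms. Closest to mmu-miR-151-3p were miR-674-3p (0.964), miR-1198-5p (0.939) and miR-378c (0.898). Closest to mmu-miR-151-5p were miR-1198-5p (0.929), miR-3066-5p (0.924) and miR-674-3p (0.909). miR-1198-5p averaged 278 CPM in induced wild type, 17.0 in KO and 2.22 in induced E518K, and miR-674-3p 339, 30.0 and 9.40 CPM in the same order. Over these doxycycline-treated groups both thus had the order of mmu-miR-151-3p under TMM scaling, with induced E518K below KO. In untreated E518K miR-1198-5p stood at 19.1 CPM, above its KO mean, and miR-674-3p at 12.7 CPM, below its KO mean.

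mmu-miR-28a-3p was closest to miR-378c (0.977), miR-465c-5p (0.964) and miR-465b-5p (0.963), the last 2 from near-identical hairpins with 0 counts in KO and in induced E518K. miR-378c averaged 156 CPM in induced wild type, 19.3 in KO and 10.3 in induced E518K. mmu-miR-28a-5p was closest to miR-374c-3p and miR-374b-5p, which had the same counts (0.865 each), and to miR-149-5p (0.812). Those for the 5p arm of miR-28a rest on its few counts. With a pseudocount of 10 in place of 1, miR-674-3p fell to rank 42 for mmu-miR-151-5p, miR-149-5p to rank 19 for mmu-miR-28a-5p and the miR-465 arms to ranks 32 and 27.

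Both hairpins are intronic, so a list of 64 arms of other miRNAs in introns of protein-coding genes was described beside them, both arms of miR-708 included. Of its 56 tested miRNAs, 32 were lower in E518K than in wild type, 6 were higher and 18 did not pass, with a median log2 change of -1.77 against -0.14 for all miRNAs, of which 35.3% were called lower and 28.2% higher. Under the DGCR8-independent scaling 51 were lower and none higher. Of the 56, 9 lay below mmu-miR-28a-3p, the least changed of the members, and 2 below mmu-miR-151-5p. This contrast chose the members, so their low place beside the list restates that choice. In KO against wild type 53 of the 56 were called lower and none higher, against 58.4% and 30.0% of all miRNAs. By fitted value, 53 lay below mmu-miR-28a-5p and 44 below mmu-miR-151-5p. The fitted list median of -6.52 there included 23 miRNAs with 0 counts in a group, and was -3.60 with these at the bound. From KO to E518K, 38 of the 56 rose and 3 fell (49 and none under the DGCR8-independent scaling), against 41.9% and 26.2% of all miRNAs, with a fitted median of 5.30, or 1.18 with 23 such miRNAs at the bound.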

How the data were processed

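The authors deposited a table of raw read counts (1966 miRNAs by 11 libraries; the file headers name no normalization) and a table of RPM, named pRPM per the file headers. STAR, bedtools and the build GRCm38.p6 are named per the submitters' processing notes. The trimming, the counting rule and its strand setting are not given in the sources used. All deposited RPM (pRPM) values, 100%, gave whole reads within 0.01 reads, and 100% equalled the counts. Since these reads equal the counts, the count test on them had to make the same calls and is no separate check. It gave 206 miRNAs higher and 258 lower in E518K against wild type. The deposited piRNA table was identical to the pRPM table in every byte and was left out.

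Groups come from the titles. The counts were fitted with edgeR 4.0.16 in R 4.3.3 (robust quasi-likelihood, all 11 libraries in 5 groups sharing 1 spread, TMM scaling; filterByExpr, minimum count 10, minimum total 15). P-values were Benjamini-Hochberg adjusted over 730 miRNAs, with a threshold of 0.05. The SE given with a log2 change was derived from the test, as the absolute log2 change divided by the square root of its F statistic. Groups without doxycycline had 1 library each. The code was tested on simulated data. Library totals and the counts behind each value set its precision, the floor being 6 counts. Arm ratios of KO and wild type were compared by exact permutation.

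Alternatives were DESeq2 1.42.0, DESeq2 size factors, total counts, a scaling by 13 DGCR8-independent miRNAs (12 tested), the authors' pRPM scaling (added after seeing the data, as was the count test above), no low-count filter, counts divided by 2, fits of only the groups compared, a pseudocount of 10 for the likeness of patterns, 0.5 added for ratios, and each induced library left out. The miRNAs named are the 4 members, miR-28b, miR-28c and both arms of miR-708, any sharing a member's seed, and the 3 with the highest Pearson r to each member. A miRNA matching a member's counts within 2% would also be named, and there were 0. Members, lists and tests were chosen with earlier results of these data known.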

Additional observations from a re-analysis of the deposited data

Results flagged for a closer look

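In the clones sequenced with and without doxycycline, mmu-miR-151-3p moved in opposite directions: log2 induced over untreated was 0.82 in wild-type clone 10 (1570 to 2770 CPM) and -0.94 in E518K clone 8 (102 to 53.0 CPM). The difference between the clones was not tested. Under the scaling by DGCR8-independent miRNAs both values were above 0, at 3.96 and 2.34.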

How the results depend on the processing

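The lower level of all 4 miRNAs in E518K than in wild type held its direction under every alternative run. Both miR-151 arms in KO against wild type and miR-151-5p with induction in wild type kept direction and call. All of these share the induced wild-type libraries, where a high level was part of the choice of the miRNAs. The other results below changed, and few counts in KO and E518K limit them. Scaling by DGCR8-independent miRNAs gave -9.26, -8.21, -6.64 and -6.07 (miR-151-5p, miR-151-3p, miR-28a-5p, miR-28a-3p) for E518K against wild type, -6.38 for miR-28a-5p in KO against wild type, and 0.13, -0.34 and 1.99 (miR-151-5p, miR-151-3p, miR-28a-3p) for E518K against KO, where the first and last changed sign. It gave 3.64, 3.69 and 3.80 (miR-151-3p, miR-28a-5p, miR-28a-3p) for induction in wild type, 2.25 (changed sign) and 3.70 for the 3p arms in E518K, 2.42 and 2.69 for the 5p arms of miR-151 and miR-28a in untreated wild type against KO, and -1.79 for miR-708-3p in E518K against wild type. Total counts gave -5.05 (miR-151-3p) and -2.84 (miR-28a-3p) for E518K against wild type, -1.29 for miR-28a-3p in KO, -1.50 for miR-151-3p with induction in E518K, and 0.12 and 0.21 for miR-151-3p and miR-28a-3p in untreated wild type against KO. Counts divided by 2 gave -2.03 (miR-28a-5p, KO against wild type), -1.46 (miR-151-5p, E518K against KO) and -0.80 (miR-151-3p, untreated E518K against KO); the authors' scaling gave -3.06, -0.51 and -1.82 for the same 3. miR-28a-5p in KO was -1.18 with only those groups fitted, miR-28a-3p in untreated wild type against KO was 1.52 with DESeq2 and with its size factors alone (call lost), and miR-151-3p in untreated E518K against KO was -1.68 without a filter (call lost, as with counts divided by 2 and the authors' scaling). Where these differ from the reported values, the cause was not tested.

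With 1 library left out, E518K against wild type ranged from -6.96 to -5.61 (miR-151-5p), -5.54 to -4.86 (miR-151-3p), -4.37 to -3.13 (miR-28a-5p) and -3.46 to -2.76 (miR-28a-3p). miR-28a-5p in KO against wild type ranged from -1.79 to -0.36 and miR-151-5p in E518K against KO from -3.31 to -1.39. Against KO, untreated wild type ranged from 0.78 to 2.36 (miR-151-3p) and 0.96 to 2.54 (miR-28a-3p), and untreated E518K from -2.69 to -1.11 (miR-151-3p). Calls over all miRNAs with induction in wild type numbered 254, but 495 under the DGCR8-independent scaling and 168 without wild-type clone 12. In untreated E518K against KO they numbered 112, but 69 with total counts, 196 with counts divided by 2, 64 without KO 2 and 66 without KO 3. miR-151-5p in E518K against KO had no value with only those groups fitted, being filtered out. No paired analysis was possible because the groups compared share fewer than 2 clone numbers.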
